A study of Mus musculus with 18 samples.

Results

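Inguinal white fat (iWAT) and brown fat (BAT) were compared over all measured genes in 12 of the 18 samples of the series, the 6 labelled as iWAT adipocytes and the 6 labelled as BAT tissue. All 12 came from wild-type C57BL/6J male mice aged 16 weeks and fed regular chow. The iWAT samples were mature adipocytes, released from the depot with collagenase I (3.3 mg/ml) at 37 °C for 30 to 45 min and collected as the floating layer. The BAT samples were whole pieces of tissue, frozen in liquid nitrogen as soon as they were taken, so that vessels, nerves, blood and stromal cells stayed in them. The depot and the digestion therefore cannot be told apart in any difference given here. RNA with an integrity number above 8 was used for every library. Of 53445 gene loci listed in the deposited tables, 19733 had at least 10 reads in at least 6 of the 12 samples and were tested, among them 16477 with a gene identifier.

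White adipocytes keep energy as triglyceride in a single large droplet and secrete hormones such as leptin and adiponectin. Brown adipocytes hold many small droplets and dense mitochondria, in which uncoupling protein 1 lets protons flow back across the inner membrane without ATP being made, so that fuel is burned for heat. Noradrenaline from sympathetic nerves starts both lipolysis and heat production through beta adrenergic receptors and cyclic AMP.

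Sequencing depth was similar in all samples. The total of reads on which the RPKM (reads scaled to locus length and to the reads of the sample) rested was 22929576 to 32141048 in iWAT and 26706786 to 34512470 in BAT. Marker genes followed the labels. Summed over 9 brown adipocyte markers, the level was 86.2 to 130.0 RPKM in iWAT and 3021 to 3760 RPKM in BAT, although the sum hides Lhx8, a homeobox gene on the brown list, whose RPKM was 1.21, 1.82 and 3.52 (lowest, median and highest of 6 samples) in iWAT and 0.156, 0.426 and 0.715 in BAT. The 9 general adipocyte markers summed to 12600 to 18199 RPKM in iWAT and 6617 to 8063 RPKM in BAT. A few samples stood apart in markers of other cells. BAT sample 12 held 1833 RPKM over 14 skeletal muscle genes, whereas 0.880 to 159 RPKM were seen in the rest of its group and 5.97 to 76.7 in iWAT. Sample 14 of iWAT held 386 RPKM over 12 endothelial genes, against 70.7 to 176 in the other iWAT samples, and sample 7 of iWAT held 218 RPKM over 12 macrophage genes, against 37.9 to 124. Globin genes and their erythroid companions were at 104 to 728 RPKM in iWAT and at 637 to 1812 RPKM in BAT.

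**Figure D1:**
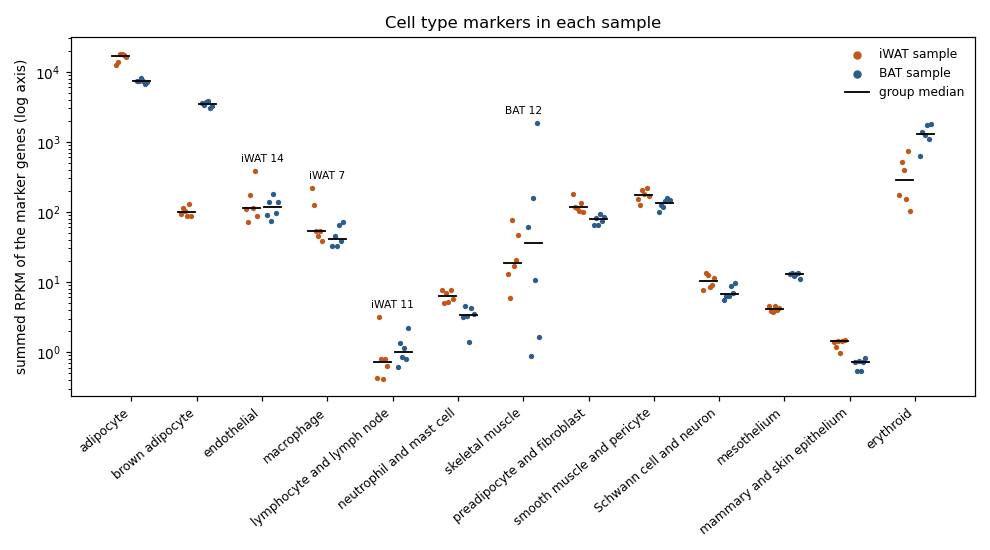
Summed RPKM (log axis) of the cell type marker lists in each of the 6 iWAT and 6 BAT samples, with a bar at each group's median. The adipocyte and brown adipocyte sums do not overlap between groups, and the skeletal muscle sum of BAT sample 12 (1833 RPKM) lies far above the rest.

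Most genes differed between the preparations. Of 19733 loci tested, 13337 (67.6%) passed an adjusted p under 0.05 in edgeR's quasi-likelihood test, 6711 (34.0%) with more RNA in iWAT and 6626 (33.6%) with more in BAT. At least a 2-fold difference was shown for 4427 (22.4%), of which 2120 (10.7%) were higher in iWAT and 2307 (11.7%) higher in BAT. Log2 fold changes of 3 or more were called for 654 loci higher in iWAT and 516 higher in BAT. The RPKM ranges of the groups did not overlap for 9403 loci (47.7%), 6241 (31.6%) with iWAT above BAT and 3162 (16.0%) with BAT above iWAT. Fold changes were scaled by TMM, which sets the bulk of genes level between samples. Without that factor 9107 loci were higher in iWAT and 4732 higher in BAT, 65.8% against 50.3% of the calls, and the median log2 fold change of all loci moved from 0.01 to 0.27. All fold changes below are relative to the TMM scale, whereas RPKM values and shares of reads carry no such factor. Mitochondrially encoded transcripts took a median of 12.1% of the reads in iWAT and 31.0% in BAT, which leaves a smaller part of the BAT reads to all other genes. In whole samples, more cells of a type and more RNA per cell cannot be told apart.

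**Figure D2:**
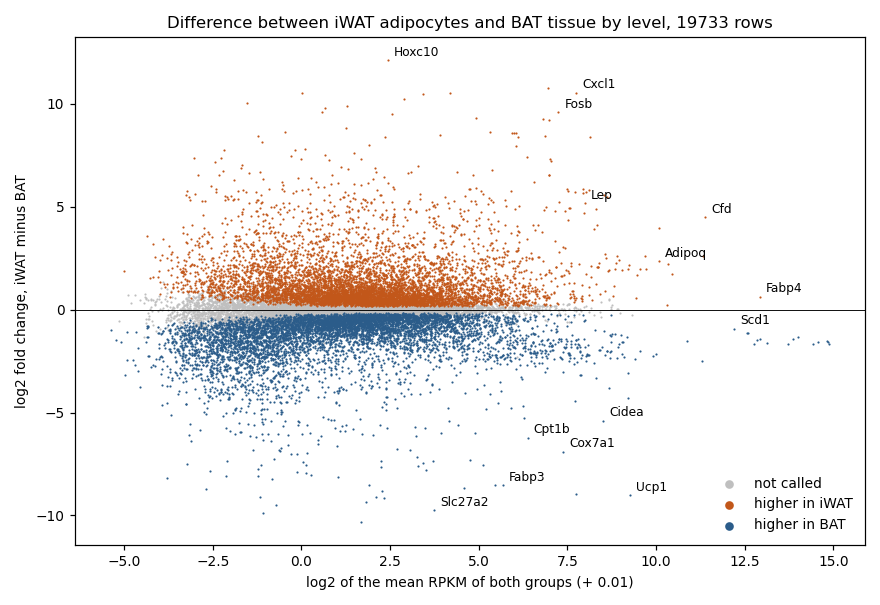
Log2 fold change (iWAT minus BAT) of the 19733 loci against log2 of their mean RPKM in both groups, with calls colored by direction. The calls are nearly even, 6711 higher in iWAT and 6626 higher in BAT, with Ucp1 (-9.02 ± 0.54) near the lower end and Cxcl1 (10.53 ± 0.42) near the upper end. Hoxc10 had no read in BAT, and its height is set by the prior count of the fit.

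Selected genes were put by function into 32 lists, written by hand with earlier results of these data known. Counts and medians of a list therefore describe its chosen members and are no independent test of the function. Below, the levels of a gene are the lowest, the median and the highest RPKM of the 6 samples in a group, and its log2 fold change (iWAT over BAT, positive where iWAT is higher) is followed by the standard error from the edgeR fit. A gene is called higher only where its adjusted p was under 0.05. List counts stand against 34.0% of all loci called higher in iWAT and 33.6% called higher in BAT. Genes named with a log2 fold change alone are members picked after their values had been seen. The lists at the BAT end were thermogenic genes (median log2 fold change -3.52), the tricarboxylic acid cycle (-2.32), complexes II and III (-2.23) and IV (-2.12) of the respiratory chain. At the iWAT end stood immediate-early genes (3.54), cytokines and chemokines (2.79), white adipocyte genes (2.76) and complement (2.26).

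**Figure D3:**
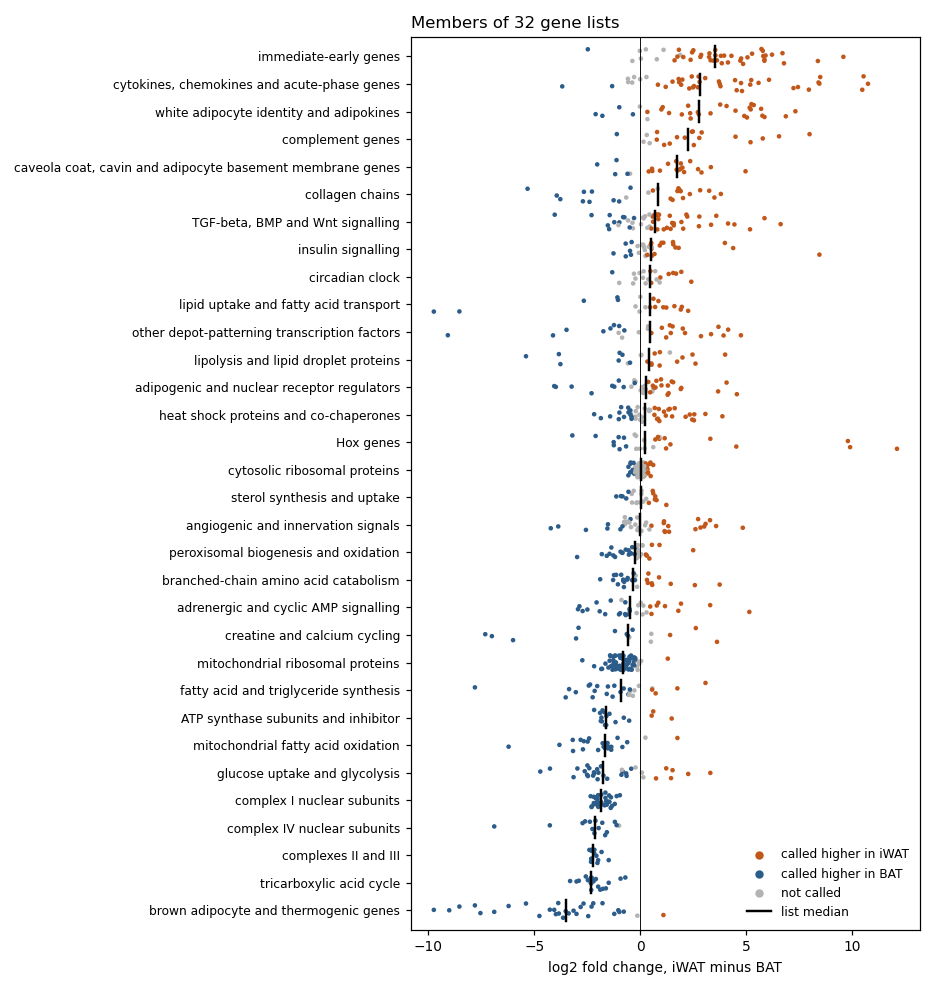
Log2 fold change (iWAT minus BAT) of every tested member of the 32 gene lists, ordered by the list median (black bar), with called members in the color of the higher group and the others in gray. All 36 complex I and all 21 tricarboxylic acid cycle genes lie on the BAT side, and 37 of 45 immediate-early genes were called on the iWAT side.

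Thermogenic genes of brown fat were higher in BAT almost throughout, 29 of 31 tested. Ucp1 (chr8:85814247-85822355 of mm9), the uncoupling protein, was at 0.494, 2.76 and 5.76 RPKM in iWAT and 969, 1196 and 1509 in BAT (log2 fold change -9.02 ± 0.54, edgeR adjusted p = 4.38e-09). Cidea (-5.399), a lipid droplet protein of brown adipocytes, was at 14.5, 20.2 and 25.00 RPKM in iWAT and 634, 715 and 805 in BAT. Slc27a2 (chr2:126378143-126413979), a fatty acid transporter and very long chain acyl-CoA synthetase, was almost silent in iWAT, at 0, 0.0382 and 0.0587 RPKM in iWAT and 19.96, 26.1 and 34.1 in BAT (-9.75 ± 0.29). None of these iWAT values came near the BAT range. Acot11 (chr4:106417160-106477603), a long-chain acyl-CoA thioesterase first found as a gene of brown fat, was at 0.238, 0.301 and 1.05 RPKM in iWAT and 32.2, 63.7 and 114 in BAT (-7.55 ± 0.50). The neighboring Fam151a (chr4:106406494-106420897) was at 0.0932, 0.119 and 0.368 RPKM in iWAT and 8.83, 17.3 and 32.1 in BAT (-7.18 ± 0.43). These 2 loci overlap on opposite strands, and as the counts carried no strand, reads of the shared stretch cannot be told apart. Regulators of the program were also higher in BAT, among them Ppargc1a (-2.68) and Ppargc1b (-3.38), coactivators of mitochondrial biogenesis, Esrrg (-3.99), Dio2 (-4.76), which makes active thyroid hormone, and, by less, Prdm16 (-0.78). Nrg4 (-0.14), a secreted growth factor of brown fat, was not called. Fgf21 (1.09), a hormone, was the only thermogenic list member called higher in iWAT, a call that was lost when iWAT sample 12, 13, 14 or 15 or BAT sample 6, 7, 12 or 13 was left out, with upper-quartile scaling and with limma on log2 RPKM plus 0.1.

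Outside the lists, further genes with large differences toward BAT were Aspg (chr12:113344894-113365784), an asparaginase, at 0.0454, 0.105 and 0.654 RPKM in iWAT and 17.6, 22.97 and 38.6 in BAT (-7.33 ± 0.49), and Kng2 (chr16:22985925-23029174), a kininogen, at 0.06196, 0.163 and 0.361 RPKM in iWAT and 11.4, 16.6 and 21.1 in BAT (-6.84 ± 0.27). Both were below 1 RPKM in every iWAT sample.

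Paralogous subunits of the same enzyme differed by unequal amounts. In cytochrome c oxidase the subunit gene Cox7a1 (chr7:30969190-30971049) was at 2.14, 3.07 and 4.65 RPKM in iWAT and 298, 326 and 364 in BAT (-6.896 ± 0.15), whereas Cox7a2 was at 49.8, 59.9 and 71.8 RPKM in iWAT and 144, 155 and 177 in BAT (-1.66 ± 0.08). Cox8b, at 55.6, 65.04 and 94.3 RPKM in iWAT and 970.1, 1078 and 1344 in BAT (-4.27 ± 0.15), and Cox8a, at 228, 321 and 351 RPKM in iWAT and 541, 587 and 684 in BAT (-1.204 ± 0.10), were both higher in BAT. The log2 fold changes of the heart and muscle forms (Cox7a1, Cox8b) lay further from 0 than those of the general forms, and the difference between paralogs was not itself tested. Cox4i1 was at 249.6, 297 and 385 RPKM in iWAT and 648, 703 and 943 in BAT (-1.58 ± 0.12), and its counterpart Cox4i2 was not called, at 0.166, 0.382 and 2.16 RPKM in iWAT and 0.776, 1.05 and 1.87 in BAT (-1.004 ± 0.49). Without sample 14 of iWAT, the sample with high endothelial markers, Cox4i2 was called higher in BAT (-1.89). Cox6a1 was at 178, 226 and 262 RPKM in iWAT and 704, 799.9 and 1023 in BAT (-2.17 ± 0.12), and Cox6a2, a muscle form, had too few reads to be tested, at 0, 0.162 and 0.283 RPKM in iWAT and 0, 0.558 and 27.9 in BAT.

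Carnitine palmitoyltransferase 1, the gate for fatty acids into mitochondria, differed in direction by form. Cpt1b (chr15:89246836-89256294) was at 1.67, 2.77 and 3.06 RPKM in iWAT and 144, 164 and 182 in BAT (-6.22 ± 0.16), whereas Cpt1a was higher in iWAT, at 3.999, 6.27 and 9.25 RPKM in iWAT and 1.14, 1.47 and 1.95 in BAT (1.75 ± 0.17), and the brain form Cpt1c was low throughout, at 0.0373, 0.0534 and 0.0866 RPKM in iWAT and 0.0941, 0.146 and 0.177 in BAT (-1.53 ± 0.24). The Cpt1b locus overlaps those of Chkb and BC090627, so part of its reads may belong to them. Among fatty acid binding proteins, Fabp3 (chr4:129985839-129992707), the heart form, was at 0.0867, 0.316 and 0.5098 RPKM in iWAT and 55.3, 91.3 and 153 in BAT (-8.54 ± 0.34), while Fabp4, the adipocyte form, was higher in iWAT, at 7663, 10660.3 and 12368 RPKM in iWAT and 4903, 5473 and 6118 in BAT (0.62 ± 0.13). Fabp5 was at 47.3, 59.7 and 93.1 RPKM in iWAT and 24.7, 31.1 and 45.2 in BAT (0.70 ± 0.19), also higher in iWAT. Among uncoupling proteins, Ucp3 was higher in BAT, at 4.85, 9.41 and 12.4 RPKM in iWAT and 32.8, 36.5 and 43.7 in BAT (-2.22 ± 0.18), and Ucp2 was not called, at 2.69, 4.09 and 5.21 RPKM in iWAT and 2.12, 2.39 and 4.86 in BAT (0.23 ± 0.21). Perilipins, which coat lipid droplets, divided as well. Plin5, which ties droplets to mitochondria, was at 3.86, 4.57 and 6.75 RPKM in iWAT and 48.3, 56.9 and 64.6 in BAT (-3.85 ± 0.14), and Plin4 was at 599, 827 and 1170.1 RPKM in iWAT and 98.98, 117 and 128 in BAT (2.599 ± 0.14). Plin1, the main coat of white adipocyte droplets, was at 451, 531 and 569 RPKM in iWAT and 215, 225 and 258 in BAT (0.91 ± 0.09), while Plin2 (-1.02 ± 0.12) and Plin3 (-0.85 ± 0.10) were higher in BAT.

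**Figure D4:**
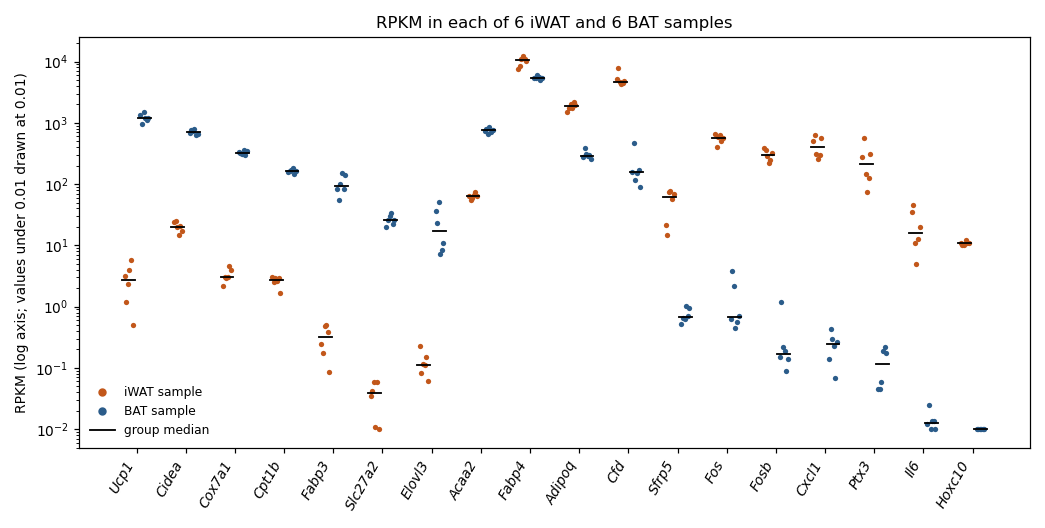
RPKM (log axis, values under 0.01 drawn at 0.01) of 18 genes in each of the 6 iWAT and 6 BAT samples, with a bar at each group median. From Ucp1 to Acaa2 the BAT samples lie above every iWAT sample, and from Fabp4 to Hoxc10 the iWAT samples lie above every BAT sample.

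Nuclear genes for the respiratory chain were higher in BAT with few exceptions. All 36 tested genes of complex I (median -1.84) and all 14 of complexes II and III were called higher in BAT, as were 14 of 15 for complex IV and 14 of 17 for ATP synthase (median -1.61). Ndufv1, which binds NADH in complex I, was at 39.1, 46.5 and 52.8 RPKM in iWAT and 176, 192 and 226 in BAT (-2.35 ± 0.09). Ndufa6 (-2.303 ± 0.09) of the same complex followed, and Ndufb9 was the most abundant of them, at 90.8, 116 and 142 RPKM in iWAT and 278, 288 and 338 in BAT (-1.65 ± 0.10). Uqcrc1, a core subunit of complex III, was at 55.9, 57.1 and 72.9 RPKM in iWAT and 245, 266 and 297 in BAT (-2.41 ± 0.09), and Cyc1, cytochrome c1, was at 54.8, 59.2 and 70.6 RPKM in iWAT and 234, 254 and 291 in BAT (-2.35 ± 0.09). In complex III the Rieske protein gene Uqcrfs1 was at 97.3, 101 and 121 RPKM in iWAT and 392, 417 and 447 in BAT (-2.27 ± 0.09) and Uqcrb at 88.8, 103 and 118 RPKM in iWAT and 346, 359 and 374 in BAT (-2.08 ± 0.08). All of these groups were apart by a wide margin. The small ATP synthase subunits Atp5j2 (-2.18 ± 0.11) and Usmg5 (-1.904 ± 0.11) were higher in BAT. The alpha and beta subunits showed a smaller distance, Atp5b at 245, 266 and 328 RPKM in iWAT and 688, 716 and 764 in BAT (-1.67 ± 0.10) and Atp5a1 at 167, 179.6 and 199 RPKM in iWAT and 506, 533 and 567 in BAT (-1.84 ± 0.08). Against this run, Atp5g1 (1.48) and Atp5g3, genes for the c subunit that forms the rotor ring, were higher in iWAT. Atp5g3 was at 85.1, 106 and 125 RPKM in iWAT and 50.9, 56.2 and 64.00 in BAT (0.61 ± 0.09). The third c subunit gene, Atp5g2, was higher in BAT (-1.17), and the ATP synthase inhibitor Atpif1 was higher in iWAT (0.53).

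In the tricarboxylic acid cycle all 21 genes were higher in BAT. The cycle took 0.376, 0.391 and 0.405% of the reads (lowest, median and highest sample) in iWAT and 1.52, 1.59 and 1.67% in BAT. Sucla2, a subunit of ATP-forming succinyl-CoA synthetase, was at 27.3, 29.99 and 33.2 RPKM in iWAT and 182, 200.4 and 222 in BAT (-3.01 ± 0.09, edgeR adjusted p = 1.51e-11), and Pdha1, of pyruvate dehydrogenase, was at 74.6, 92.9 and 106 RPKM in iWAT and 322, 388 and 422 in BAT (-2.33 ± 0.13). The distance was smaller for Idh2 (-0.94), the NADP-dependent isocitrate dehydrogenase, and for Suclg2 (-0.71), of GTP-forming succinyl-CoA synthetase. Fatty acid oxidation followed, with 23 of 25 genes higher in BAT. Acaa2, the thiolase that ends each round of beta oxidation, was at 55.8, 64.1 and 74.5 RPKM in iWAT and 668, 749 and 844 in BAT (-3.82 ± 0.10), and Acadl, long-chain acyl-CoA dehydrogenase, was at 83.4, 91.5 and 101 RPKM in iWAT and 402, 432 and 453 in BAT (-2.49 ± 0.09). Apart from Cpt1a, only Acsl1 (0.24), which activates fatty acids, was not higher in BAT, and the list had 2 members higher in iWAT without BAT sample 8, without TMM or with limma.

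Mitochondrial ribosomal proteins were higher in BAT by less, 69 of 76 with a median of -0.81. Mrps36, which is also known as a subunit of the 2-oxoglutarate dehydrogenase complex, was at 7.697, 9.06 and 10.2 RPKM in iWAT and 43.1, 50.98 and 54.2 in BAT (-2.74 ± 0.09), and Mrpl34 was at 19.1, 21.6 and 23.9 RPKM in iWAT and 69.02, 82.1 and 92.8 in BAT (-2.18 ± 0.09). Mrps6 went the other way, at 90.5, 105 and 122 RPKM in iWAT and 32.5, 34.3 and 43.1 in BAT (1.29 ± 0.08), and was the only member called higher in iWAT. Its locus overlaps that of Slc5a3, so part of the reads counted for Mrps6 may belong to that gene. Cytosolic ribosomal proteins showed small differences, with 16 of 75 higher in iWAT, 10 higher in BAT and a median of 0.04. Without the TMM factor 40 were higher in iWAT and 1 in BAT. Rps4x, at 16.03, 16.3 and 22.3 RPKM in iWAT and 9.11, 10.1 and 12.6 in BAT (0.49 ± 0.10), and Rps24, at 7.81, 10.2 and 11.7 RPKM in iWAT and 10.9, 12.1 and 14.3 in BAT (-0.56 ± 0.09), mark the size of these differences. Left-out single samples gave 9 higher in iWAT without BAT sample 6, 10 without BAT sample 13, 5 higher in BAT without iWAT sample 13 or BAT sample 7 and 6 without BAT sample 11, and Rps14 sat at the threshold (-0.37 ± 0.16, edgeR adjusted p = 0.0499). For 16 of the 75 the row with most reads lay at another place than the annotated gene, as for Rpl10, Rpl28 and Rplp2, and those values are uncertain.

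Transcripts encoded by the mitochondrial genome followed the nuclear genes. Counted without overlap, 16 rows that matched them took 10.0, 12.1 and 18.0% of the reads in iWAT and 29.2, 31.0 and 32.4% in BAT. The ranges were far apart, with sample 14 highest in iWAT. Part of these reads stood on rows at chromosome 1 and chromosome 2, where the genome holds copies of mitochondrial DNA. Those rows alone took a median of 6.45% of the reads in iWAT and 16.6% in BAT. The chromosome 1 spans of COX2, COX3 and ND4L were identical to the mitochondrial genome in all of their bases, so that the origin of their reads cannot be told apart. The rows LOC100503946, at 12938, 15689 and 25515 RPKM in iWAT and 41422, 42184 and 44176 in BAT (-1.59 ± 0.19), and LOC100503984, at 12825, 15860.2 and 24472 RPKM in iWAT and 39116, 40442 and 42372 in BAT (-1.53 ± 0.18), lie over the same chromosome 1 stretch and share reads with COX2 and COX3. COX2 was at 12603, 15458 and 25057 RPKM in iWAT and 41842, 43785 and 45387 in BAT (-1.66 ± 0.19), and COX3 was at 10004, 12276 and 23805 RPKM in iWAT and 32889, 34895 and 35966 in BAT (-1.59 ± 0.21). The row with identifier ENSMUSG00000064370, cytochrome b, was at 9887, 11604 and 15728 RPKM in iWAT and 29859, 32166 and 34044 in BAT (-1.67 ± 0.15).

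**Figure D5:**
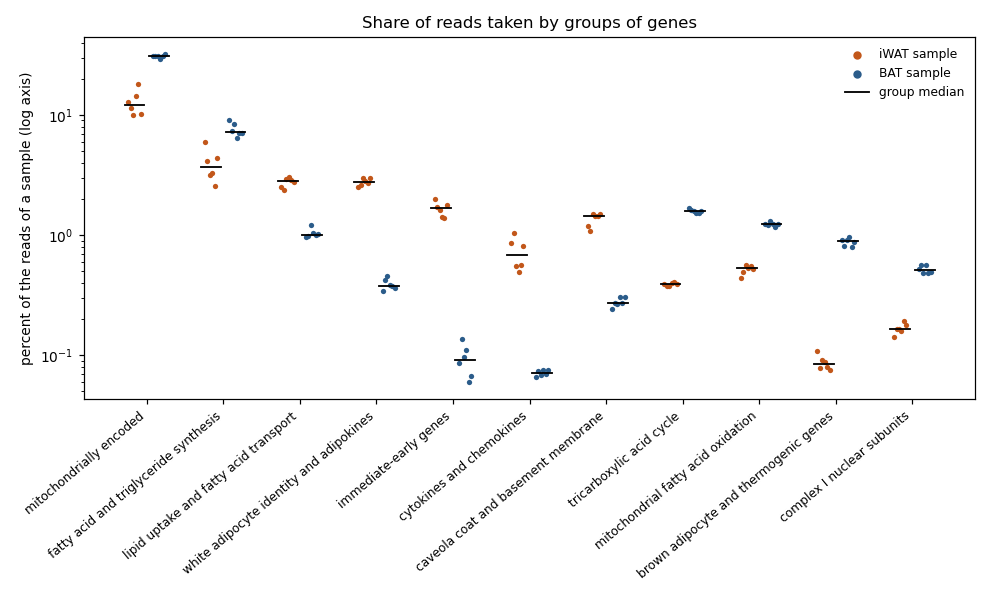
Percent of a sample's reads (log axis) taken by the mitochondrially encoded transcripts and by 10 gene lists in the 6 iWAT and 6 BAT samples, with a bar at each group median. Mitochondrially encoded transcripts take 10.0 to 18.0% in iWAT and 29.2 to 32.4% in BAT, and immediate-early genes take 1.39 to 1.98% in iWAT and at most 0.137% in BAT.

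Fatty acid synthesis was higher in BAT, with wide spread among the iWAT samples. Of 27 genes for fatty acid and triglyceride synthesis, 17 were higher in BAT and 4 in iWAT, and the list took 2.55, 3.71 and 5.97% of the reads in iWAT and 6.42, 7.28 and 9.03% in BAT. Fasn, fatty acid synthase, was at 223, 429 and 675 RPKM in iWAT and 1076, 1620.4 and 2112 in BAT (-2.16 ± 0.30). Acacb, the mitochondrial acetyl-CoA carboxylase, was at 5.21, 10.6 and 11.7 RPKM in iWAT and 71.3, 83.3 and 111 in BAT (-3.53 ± 0.23). Scd1, the stearoyl-CoA desaturase, overlapped between the groups, at 2058, 3517 and 6138 RPKM in iWAT and 5109, 5786 and 6441 in BAT (-0.94 ± 0.23). Sample 7 of iWAT was highest in Fasn, Scd1 and Elovl6, and samples 13 and 14 were the lowest for Fasn and Elovl6. Among elongases, Elovl3 (chr19:46206387-46210184), induced by cold in brown fat, was at 0.0615, 0.112 and 0.231 RPKM in iWAT and 7.27, 17.04 and 51.4 in BAT (-7.81 ± 0.68). Elovl6, which extends palmitate, was at 5.34, 14.1 and 32.5 RPKM in iWAT and 85.1, 129.6 and 189 in BAT (-3.37 ± 0.41), and Elovl5 was higher in BAT by less, with overlapping ranges, at 11.1, 12.9 and 15.2 RPKM in iWAT and 10.7, 15.5 and 23.7 in BAT (-0.57 ± 0.17). Elovl1 was higher in iWAT, at 4.78, 5.17 and 5.67 RPKM in iWAT and 1.23, 1.71 and 2.64 in BAT (1.31 ± 0.14).

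Esterification did not follow synthesis as a block. Agpat9, a glycerol-3-phosphate acyltransferase, was higher in iWAT, at 18.9, 25.7 and 29.2 RPKM in iWAT and 1.26, 2.29 and 4.14 in BAT (3.07 ± 0.23), and so was Mogat1, a monoacylglycerol acyltransferase, at 13.3, 15.8 and 17.3 RPKM in iWAT and 2.31, 3.61 and 5.29 in BAT (1.75 ± 0.21). Gpam (-1.23) and Agpat2 (-1.59), of the same pathway, were higher in BAT, and the last enzymes of triglyceride synthesis were Dgat1 (-0.07, not called) and Dgat2 (0.55, higher in iWAT).

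Lipid uptake and droplet proteins differed in both directions. Of 19 uptake genes 10 were higher in iWAT and 5 in BAT, and of 22 lipolysis and droplet genes 11 were higher in iWAT and 7 in BAT, where 34.0% and 33.6% of all loci were called in these directions. Lpl, the lipoprotein lipase that frees fatty acids from plasma triglyceride, was at 834, 984 and 1029 RPKM in iWAT and 177, 202 and 266 in BAT (1.96 ± 0.13), and Angptl4, its secreted inhibitor, was at 256, 326 and 404 RPKM in iWAT and 36.2, 60.5 and 69.8 in BAT (2.25 ± 0.16). Another inhibitor of the enzyme, Angptl8 (listed as Gm6484), was higher in BAT, at 2.18, 3.59 and 4.55 RPKM in iWAT and 9.78, 11.6 and 16.03 in BAT (-2.11 ± 0.20). Cidec, which fuses droplets, was at 806, 1262 and 1535 RPKM in iWAT and 220.1, 232 and 351 in BAT (1.99 ± 0.17), so that Cidea and Cidec stood in opposite order in the 2 tissues. Hilpda (listed as 2310016C08Rik), an inhibitor of adipose triglyceride lipase, was at 21.04, 35.4 and 61.8 RPKM in iWAT and 1.46, 2.098 and 2.43 in BAT (3.999 ± 0.27). That lipase, Pnpla2, was not called, at 487, 544 and 555 RPKM in iWAT and 383, 422 and 484 in BAT (0.05 ± 0.08). The 2 groups do not overlap in its RPKM, but the difference is gone on the TMM scale. The next lipase in the cascade, Lipe, was higher in iWAT (0.67), as was Mgll (0.92).

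Of 33 genes for glucose uptake and glycolysis, 23 were higher in BAT and 6 in iWAT, with a median of -1.74. The list is wider than glycolysis, as it also holds the transporter Slc2a1, the glycogen phosphorylases Pygb and Pygm and the kinase gene Pdk4. The 23 include the muscle genes Pgam2 and Pygm. Their fold changes were smaller without the BAT sample with high muscle markers, as given below. Aldoa, aldolase, was at 216, 240.3 and 302 RPKM in iWAT and 478, 645 and 689 in BAT (-1.57 ± 0.14), and Ldhb was at 16.00, 17.5 and 21.1 RPKM in iWAT and 86.8, 92.3 and 104 in BAT (-2.63 ± 0.09), while Ldha was close to level, at 147, 158 and 191 RPKM in iWAT and 153, 185 and 207 in BAT (-0.43 ± 0.11). Pygb, the brain form of glycogen phosphorylase, was higher in iWAT, at 44.6, 49.1 and 59.4 RPKM in iWAT and 12.8, 14.97 and 17.4 in BAT (1.45 ± 0.09). Glucose transporters split, with Slc2a1 higher in iWAT, at 4.04, 7.97 and 10.8 RPKM in iWAT and 0.774, 1.41 and 1.78 in BAT (2.26 ± 0.21), and the insulin-responsive Slc2a4 higher in BAT (-0.67). Among hexokinases, Hk2 was at 28.5, 52.5 and 107 RPKM in iWAT and 40.99, 54.6 and 64.5 in BAT (-0.23 ± 0.28, not called, but -0.54 and higher in BAT without iWAT sample 11), and Hk1 was higher in BAT, at 1.47, 1.77 and 2.19 RPKM in iWAT and 1.81, 2.703 and 3.59 in BAT (-0.84 ± 0.15). Hk3, found mainly in blood cells, was low in both groups and higher in iWAT, at 0.138, 0.215 and 0.678 RPKM in iWAT and 0.0574, 0.07905 and 0.189 in BAT (1.39 ± 0.45). Pyruvate dehydrogenase kinases, which shut off the entry of pyruvate into the cycle, differed by form. Pdk4 was at 30.1, 43.7 and 109 RPKM in iWAT and 324, 388 and 538 in BAT (-3.15 ± 0.29), Pdk2 (-2.02 ± 0.08) and Pdk1 (-1.98 ± 0.13) were also higher in BAT, and Pdk3 was higher in iWAT, at 2.07, 2.42 and 3.23 RPKM in iWAT and 0.168, 0.211 and 0.256 in BAT (3.300 ± 0.16).

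Several muscle genes on the metabolic lists were carried by BAT sample 12. Pgam2, muscle phosphoglycerate mutase, was at 0.144, 0.375 and 0.6603 RPKM in iWAT and 0.707, 1.81 and 46.5 in BAT (-4.72 ± 1.15), and the log2 fold change was -2.42 without that sample. Pygm, muscle glycogen phosphorylase, was at 0.333, 0.525 and 1.08 RPKM in iWAT and 0.565, 1.72 and 50.9 in BAT (-4.27 ± 1.10), and gave -1.92 without the sample. Ckm, muscle creatine kinase, was at 0.08197, 0.6896 and 3.85 RPKM in iWAT and 0.0206, 6.08 and 310.3 in BAT (-6.01 ± 1.68), and gave -3.18 without it. Atp2a1, the calcium pump of fast muscle, was at 0, 0.265 and 1.51 RPKM in iWAT and 0.109, 5.82 and 282 in BAT (-7.32 ± 1.80), and gave -4.63 without it. In each case BAT sample 12 was the highest of the 12 and the BAT median was below 7 RPKM. Of 14 skeletal muscle markers 10 were tested and 9 were higher in BAT, and none was without a read. Their summed level was 0.880 to 1833 RPKM in BAT and 5.97 to 76.7 RPKM in iWAT. The part of muscle tissue in these differences was not tested beyond leaving out sample 12. The ubiquitous pump Atp2a2 was at 8.81, 11.8 and 13.1 RPKM in iWAT and 10.6, 13.9 and 21.1 in BAT (-0.64 ± 0.16), and Atp2a3 was higher in iWAT, at 2.14, 6.602 and 9.54 RPKM in iWAT and 1.54, 1.95 and 2.09 in BAT (1.402 ± 0.29). Gamt, which makes creatine, was higher in iWAT, at 9.41, 13.3 and 15.8 RPKM in iWAT and 1.35, 1.74 and 2.03 in BAT (2.61 ± 0.13).

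Genes for the catabolism of branched-chain amino acids were called in both directions. Of 26 genes 15 were higher in BAT and 9 in iWAT, against 33.6% and 34.0% of all loci. Bckdha, of the branched-chain keto acid dehydrogenase, was at 61.9, 65.7 and 77.4 RPKM in iWAT and 116, 137 and 157 in BAT (-1.29 ± 0.09), and Dld, which that complex shares with pyruvate dehydrogenase, was at 35.01, 41.7 and 44.7 RPKM in iWAT and 111, 127 and 138 in BAT (-1.896 ± 0.10). The transaminase Bcat2, which comes before them, was higher in iWAT, at 24.3, 26.9 and 34.6 RPKM in iWAT and 7.82, 8.14 and 10.7 in BAT (1.43 ± 0.11), as were its cytosolic form Bcat1 (3.74) and the transporter Slc7a5 (2.57). Aldh6a1, late in valine breakdown, was at 101, 116 and 128 RPKM in iWAT and 64.5, 79.00 and 86.8 in BAT (0.31 ± 0.11). Oxct1, of ketone body use, was at 47.4, 58.9 and 62.6 RPKM in iWAT and 24.2, 24.9 and 27.2 in BAT (0.88 ± 0.08). In peroxisomes 18 of 34 genes were higher in BAT and 6 in iWAT, or 10 in iWAT without TMM or with limma. The peroxisome list took 0.504, 0.541 and 0.563% of the reads in iWAT and 0.379, 0.391 and 0.445% in BAT, shares without a TMM factor. Abcd2 and Abcd3 carry very long chain fatty acids into peroxisomes, and stood in opposite order. Abcd2 was at 107, 159 and 164 RPKM in iWAT and 14.9, 22.3 and 25.3 in BAT (2.49 ± 0.16) and Abcd3 was at 9.09, 11.6 and 12.7 RPKM in iWAT and 28.5, 32.2 and 44.3 in BAT (-1.82 ± 0.14). Ehhadh, an enzyme of peroxisomal beta oxidation, was at 12.7, 18.6 and 24.9 RPKM in iWAT and 28.4, 47.2 and 66.4 in BAT (-1.59 ± 0.19). Catalase, Cat, was at 247, 271 and 305 RPKM in iWAT and 146, 152 and 176 in BAT (0.54 ± 0.09), and Phyh, of phytanic acid oxidation, was higher in BAT, at 63.4, 72.4 and 85.02 RPKM in iWAT and 161, 168 and 179 in BAT (-1.46 ± 0.08). Sterol synthesis showed small differences in both directions, 7 genes higher in iWAT, 5 higher in BAT and 10 not called, with Ebp at 8.46, 9.31 and 11.4 RPKM in iWAT and 4.18, 4.34 and 6.38 in BAT (0.76 ± 0.11) and Pmvk at 15.5, 16.6 and 21.9 RPKM in iWAT and 20.3, 23.97 and 39.4 in BAT (-0.92 ± 0.19). Mvk (0.70 ± 0.13) was higher in iWAT and Fdft1 (-0.67 ± 0.10), squalene synthase, in BAT. Insig1, a sterol sensor, was not called, at 63.4, 80.9 and 109.8 RPKM in iWAT and 42.4, 63.00 and 97.8 in BAT (0.05 ± 0.19).

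White adipocyte genes and adipokines were higher in iWAT for 25 of 31, and took 2.53, 2.77 and 3.0% of the reads in iWAT and 0.34, 0.379 and 0.452% in BAT. Cfd, adipsin, was at 4263, 4655 and 7772 RPKM in iWAT and 88.4, 155 and 469.8 in BAT (4.49 ± 0.39), and Adipoq, adiponectin, was at 1485, 1862 and 2147 RPKM in iWAT and 258, 289.5 and 394 in BAT (2.35 ± 0.12). In BAT both were highest in sample 7. Wdnm1-like (listed as 1100001G20Rik) was at 7.203, 8.13 and 9.37 RPKM in iWAT and 0.0105, 0.0578 and 0.112 in BAT (6.86 ± 0.27). Lep (5.16), Retn (5.204) and Agt (5.24), the genes of leptin, resistin and angiotensinogen, were also higher in iWAT. Nampt, an enzyme of NAD synthesis that is also secreted, was higher in BAT, at 18.8, 23.2 and 30.6 RPKM in iWAT and 33.3, 38.9 and 43.8 in BAT (-0.996 ± 0.13). Major urinary protein genes were among the 10 loci with the largest fold changes toward iWAT. Mup7 (chr4:60079341-60083347) was at 46.3, 164 and 570.1 RPKM in iWAT and 0, 0.0802 and 0.961 in BAT (9.28 ± 0.85), Mup10 (chr4:60591132-60595071) at 2.76, 10.6 and 37.1 RPKM in iWAT and 0, 0 and 0.02099 in BAT and Mup11 (chr4:60671338-60675283) at 2.73, 8.105 and 29.03 RPKM in iWAT and 0, 0 and 0.0402 in BAT. All of them were highest in iWAT sample 7 and lowest in sample 14. These genes are near-identical copies, so which copy the reads came from is uncertain. Fam110c (chr12:31758726-31764805), a gene outside the lists, was at 12.8, 36.3 and 62.9 RPKM in iWAT and 0, 0.0194 and 0.0364 in BAT (10.53 ± 0.54). With 0 to 3 reads per BAT sample, the size of its fold change rests on few reads.

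Hox genes, whose order in their clusters follows the body axis, were called in both directions. Hoxc10 (chr15:102797223-102802324) had 473 to 674 reads in each iWAT sample, at 9.95, 10.8 and 12.3 RPKM, and not a single read in 6 BAT samples, which makes it at least 1292-fold higher in iWAT against a floor of 3 reads over the BAT group. Hoxc9 had 1732 reads in iWAT and 1 in BAT, and Hoxa10 had 2533 and 2, ratios per total reads of 1990 (95% exact interval 357 to 78650) and 1455 (402 to 12020). These intervals cover counting error only. Hoxc8 was at 34.01, 45.7 and 52.7 RPKM in iWAT and 1.12, 1.598 and 2.03 in BAT (4.53 ± 0.16) and Hoxc6 at 10.4, 12.5 and 14.7 RPKM in iWAT and 3.22, 3.75 and 4.62 in BAT (1.42 ± 0.12). In BAT, Hoxa4 was higher, at 0.437, 0.794 and 1.01 RPKM in iWAT and 4.05, 6.09 and 6.95 in BAT (-3.21 ± 0.22), and so was Hoxa5, at 2.25, 2.65 and 3.59 RPKM in iWAT and 6.89, 10.2 and 11.3 in BAT (-2.11 ± 0.16). In all, 11 of 27 tested Hox genes were higher in iWAT and 8 in BAT, against 34.0% and 33.6% of all loci, and 12 more had too few reads. The members called higher in iWAT were Hoxa6, Hoxa7, Hoxa9, Hoxa10, Hoxb5, Hoxb7, Hoxc6, Hoxc8, Hoxc9, Hoxc10 and Hoxd9, and those called higher in BAT were Hoxa2, Hoxa3, Hoxa4, Hoxa5, Hoxb2, Hoxb3, Hoxb4 and Hoxc4. The Hoxa4 and Hoxa5 loci overlap other rows of the cluster, and their reads cannot be fully told apart without strand.

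Of 28 other patterning factors 15 were higher in iWAT and 8 in BAT, the latter being 1 at a mean RPKM of at least 1, where fewer members were tested. Zic1, a zinc finger gene long used to tell brown from inguinal fat, had 912 reads in BAT and 1 in iWAT, a ratio of 794 (95% exact interval 142 to 31380). Shox2, a limb homeobox gene, was at 4.82, 5.63 and 6.52 RPKM in iWAT and 0.2597, 0.385 and 0.411 in BAT (3.68 ± 0.13), and Twist1 was at 12.2, 14.7 and 18.5 RPKM in iWAT and 4.66, 5.26 and 6.896 in BAT (1.22 ± 0.10). Tbx5 (-3.49) was higher in BAT, while Tbx15 (1.43) and Irx1 (4.74) were higher in iWAT. Meox2 was not called, at 2.45, 4.45 and 12.2 RPKM in iWAT and 3.99, 4.73 and 7.15 in BAT (-0.07 ± 0.33).

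Adipogenic regulators were near level at the top and far apart further down. Pparg, the master regulator of fat cells, was at 89.1, 103 and 119 RPKM in iWAT and 63.7, 74.7 and 85.00 in BAT (0.23 ± 0.09), and Cebpa was at 249, 295 and 377 RPKM in iWAT and 132, 166 and 218 in BAT (0.59 ± 0.13). The Pparg call was lost without iWAT sample 7, 11, 12, 13 or 15 or BAT sample 7, 12 or 13, with 0.19 without BAT sample 13. By contrast, Ppara, which drives fatty acid oxidation, was at 2.401, 3.36 and 3.94 RPKM in iWAT and 32.5, 45.3 and 59.8 in BAT (-4.07 ± 0.16), and Esrra, of mitochondrial gene control, was at 3.29, 4.01 and 4.68 RPKM in iWAT and 14.9, 16.5 and 17.8 in BAT (-2.304 ± 0.09). On the iWAT side, Nrip1, a corepressor of nuclear receptors, was at 12.6, 24.2 and 35.8 RPKM in iWAT and 0.941, 1.29 and 1.35 in BAT (4.07 ± 0.22), and Cebpd was at 19.9, 26.7 and 35.5 RPKM in iWAT and 0.6297, 0.881 and 1.67 in BAT (4.55 ± 0.23). Of 39 genes on the list 19 were higher in iWAT and 9 in BAT.

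Of 21 circadian clock genes 12 were not called, and the list median was 0.47. Nr1d1, the repressor REV-ERB alpha, was at 79.7, 122 and 137 RPKM in iWAT and 25.5, 33.4 and 42.8 in BAT (1.55 ± 0.15), with iWAT sample 14 the lowest of its group, and its locus overlaps that of Thra. Nfil3 was at 13.7, 33.1 and 52.7 RPKM in iWAT and 2.64, 3.92 and 13.1 in BAT (2.402 ± 0.39), and Rora was at 3.68, 7.11 and 8.600 RPKM in iWAT and 1.22, 1.41 and 1.82 in BAT (1.93 ± 0.18). Bhlhe40 was not called, at 13.97, 31.2 and 47.6 RPKM in iWAT and 3.59, 14.4 and 25.4 in BAT (0.77 ± 0.40), though it was called without BAT sample 6 (1.02). Of the list 8 genes were higher in iWAT and 1 in BAT, and 2 were higher in BAT when iWAT sample 12 was left out. The hour at which each sample was taken was not given in the sources used here.

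Components of beta adrenergic signaling went in both directions. The list took 0.366, 0.407 and 0.431% of the reads in iWAT and 0.402, 0.407 and 0.418% in BAT, shares without a TMM factor. Of 32 genes tested 16 were higher in BAT and 9 in iWAT, against 33.6% and 34.0% of all loci. Of the receptors, Adrb3 was not called, at 62.8, 91.2 and 129 RPKM in iWAT and 50.6, 68.2 and 99.7 in BAT (0.14 ± 0.20). Adrb1 was higher in BAT, at 0.9101, 1.19 and 2.19 RPKM in iWAT and 5.13, 8.01 and 11.5 in BAT (-2.95 ± 0.24). Adenylyl cyclases were divided, with Adcy5 at 21.4, 25.1 and 36.8 RPKM in iWAT and 0.421, 0.602 and 0.967 in BAT (5.14 ± 0.25) and Adcy3 (-1.66) and Adcy10 (-2.501) higher in BAT. Gnai1, an inhibitory G protein subunit, was at 110.03, 128 and 149 RPKM in iWAT and 9.31, 10.7 and 12.8 in BAT (3.29 ± 0.12), whereas Gnas, the stimulatory one, was higher in BAT (-1.398). Phosphodiesterases that end the signal differed in direction too, Pde4a at 0.816, 1.05 and 1.07 RPKM in iWAT and 4.67, 5.51 and 6.24 in BAT (-2.73 ± 0.11) and Pde3b higher in iWAT (0.85). Prkar2b, the regulatory kinase subunit of fat, was at 195, 224 and 287 RPKM in iWAT and 228, 273 and 315 in BAT (-0.50 ± 0.13).

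For insulin signaling, 16 of 31 genes were higher in iWAT and 6 in BAT. Irs2 was at 32.1, 73.3 and 117 RPKM in iWAT and 1.44, 2.704 and 5.698 in BAT (4.38 ± 0.39), and Socs3, a feedback inhibitor of cytokine and insulin signaling, was at 126, 228 and 352 RPKM in iWAT and 0.341, 0.493 and 0.951 in BAT (8.45 ± 0.38). Mtor was higher in BAT, at 4.53, 5.79 and 5.999 RPKM in iWAT and 9.61, 10.3 and 13.5 in BAT (-1.27 ± 0.12), as was Gsk3a, at 13.1, 14.9 and 16.2 RPKM in iWAT and 17.7, 19.3 and 22.6 in BAT (-0.69 ± 0.08). Insr (0.53) was higher in iWAT, and Akt2 (-0.13) was not called.

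Immediate-early genes, which cells switch on within minutes of a stimulus, were among the most abundant differences toward iWAT. Of 45 genes 37 were higher in iWAT and 1 in BAT, with 7 not called. Fos was at 397, 569.7 and 665 RPKM in iWAT and 0.445, 0.664 and 3.84 in BAT (8.38 ± 0.60), and Fosb (chr7:19888045-19895394) was at 223, 303 and 383 RPKM in iWAT and 0.0878, 0.169 and 1.19 in BAT (9.58 ± 0.67, edgeR adjusted p = 2.09e-08). Egr1 was at 385, 553 and 694 RPKM in iWAT and 1.53, 3.29 and 20.3 in BAT (5.798 ± 0.72). The highest BAT values of Fos and Fosb were in sample 7 and that of Egr1 in sample 8, and all were far below the lowest iWAT value. Atf3 (6.21), Myc (5.85) and Junb (5.71) followed. Rgs2, which damps G protein signaling, was higher in BAT, at 3.36, 4.68 and 8.68 RPKM in iWAT and 8.22, 16.1 and 54.3 in BAT (-2.48 ± 0.49). The orphan receptor genes Nr4a2 (-0.38) and Nr4a3 (1.09), which belong to the same class, were not called. All iWAT samples had passed the digestion and no BAT sample had, so that its part and that of the depot cannot be told apart.

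Cytokine, chemokine and acute-phase genes showed the same direction, with 35 of 43 higher in iWAT, 2 in BAT and 6 not called. Cxcl1 (chr5:91320267-91322147), a neutrophil attractant, was at 256, 406 and 630.4 RPKM in iWAT and 0.0685, 0.248 and 0.435 in BAT (10.53 ± 0.42). Ptx3 (chr3:66023809-66029728), pentraxin 3, was at 73.6, 211 and 558 RPKM in iWAT and 0.0452, 0.117 and 0.218 in BAT (10.74 ± 0.67), and a second row on the opposite strand inside it (chr3:66024208-66025340) was at 20.7, 55.1 and 134 RPKM in iWAT and 0, 0.0909 and 0.142 in BAT, where strandless counting cannot separate the reads. Il6 (chr5:30339683-30346521), interleukin 6, was at 4.88, 16.2 and 46.02 RPKM in iWAT and 0, 0.0127 and 0.0243 in BAT (10.47 ± 0.81). It had 0 to 2 reads per BAT sample, so the size of its fold change rests on few reads. In Cxcl1, Ptx3 and Il6 the iWAT samples 11 and 7, or 11 and 15, were the highest and sample 13 the lowest. Hp, haptoglobin, an acute-phase protein that fat also secretes, was at 1182, 1328 and 1753 RPKM in iWAT and 271, 298 and 326 in BAT (1.98 ± 0.11). Ccl2 (7.95), Cxcl2 (8.49) and Tnf (5.58) were also higher in iWAT. Cxcl14, a chemokine released by brown fat, was higher in BAT, at 0.2098, 0.543 and 1.49 RPKM in iWAT and 5.91, 7.67 and 8.299 in BAT (-3.69 ± 0.32), as was Cx3cl1 (-1.33), and 4 genes of the list were higher in BAT without iWAT sample 14. Of 12 macrophage markers 4 were higher in iWAT, none in BAT, against 34.0% and 33.6% of all loci, and all had reads. Their sum overlapped, 37.9 to 218 RPKM in iWAT and 32.8 to 71.9 RPKM in BAT, and of the neutrophil and mast cell list 1 of 5 tested was higher in each group. The 12 neutrophil and mast cell markers, all with reads, summed to 5.02 to 7.74 RPKM in iWAT and 1.41 to 4.49 in BAT, which did not overlap. The part of these cells in the cytokine differences was not tested.

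The stretch of 250 bases before the start site is shown for 5 of these genes, as each carries a short motif that was searched for in all promoters. The sequences are those of RefSeq (table of GRCm38.p6), each found once and without mismatch in the mm9 chromosome of its gene. Other chromosomes were not searched. Coordinates are those of mm9, and the motif is in capitals. For Cxcl1 (chr5:91320021-91320270, plus strand), Cxcl2 (chr5:91332675-91332924, plus strand), Il6 (chr5:30339404-30339653, plus strand) and Nfkbia (chr12:56593635-56593884, minus strand), an inhibitor of NF-kappa-B, the capitals mark GGGANTTTC, read on either strand, a motif bound by NF-kappa-B. For Fos (chr12:86814590-86814839, plus strand) they mark TGACGT, the core of the cyclic AMP response element.
Cxcl1: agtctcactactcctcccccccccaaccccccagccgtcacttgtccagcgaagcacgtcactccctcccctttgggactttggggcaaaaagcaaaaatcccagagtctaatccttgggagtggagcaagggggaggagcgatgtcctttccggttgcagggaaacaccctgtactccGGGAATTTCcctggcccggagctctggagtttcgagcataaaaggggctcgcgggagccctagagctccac
Cxcl2: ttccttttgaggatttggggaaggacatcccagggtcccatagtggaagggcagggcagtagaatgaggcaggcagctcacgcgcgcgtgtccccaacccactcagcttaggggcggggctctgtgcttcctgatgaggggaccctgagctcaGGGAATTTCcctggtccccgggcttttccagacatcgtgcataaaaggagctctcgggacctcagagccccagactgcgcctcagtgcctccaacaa
Il6: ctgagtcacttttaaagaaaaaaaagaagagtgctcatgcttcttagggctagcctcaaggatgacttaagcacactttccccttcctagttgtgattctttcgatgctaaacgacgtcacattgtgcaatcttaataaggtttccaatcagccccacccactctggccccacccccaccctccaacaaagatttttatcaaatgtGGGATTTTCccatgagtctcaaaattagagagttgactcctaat
Nfkbia: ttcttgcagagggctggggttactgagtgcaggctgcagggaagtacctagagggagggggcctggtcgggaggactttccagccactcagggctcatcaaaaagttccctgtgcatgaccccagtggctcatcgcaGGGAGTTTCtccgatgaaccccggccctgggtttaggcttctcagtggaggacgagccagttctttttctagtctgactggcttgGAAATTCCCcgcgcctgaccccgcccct
Fos: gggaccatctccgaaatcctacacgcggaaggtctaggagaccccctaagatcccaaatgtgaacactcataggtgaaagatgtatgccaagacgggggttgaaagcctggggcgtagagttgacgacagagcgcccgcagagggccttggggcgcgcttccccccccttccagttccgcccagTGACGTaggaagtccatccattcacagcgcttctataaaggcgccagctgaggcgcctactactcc

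The capitals begin 71 bases before the start of Cxcl1, 97 before that of Cxcl2, 44 before that of Il6 and 66 before that of Fos, and Nfkbia holds 2 matches, the first of which begins 113 bases before its start. Of 41 cytokine genes with a promoter in the table, 5 (12.2%) held GGGANTTTC on either strand, namely Csf1, Cxcl1, Cxcl2, Cxcl9 and Il6, against 299 of all 27025 genes (1.11%). Of 34 immediate-early genes 11 (32.4%) held TGACGT, against 7.29% of all genes, and the same letters were held by 13 of 82 genes of the respiratory chain, ATP synthase and tricarboxylic acid cycle (15.9%), 6 of 38 heat shock genes (15.8%) and 4 of 41 cytokine genes (9.76%). The pair of heat shock units GAANNTTC was held by 11 of 38 heat shock genes (28.9%) and 7.73% of all genes. The motif TCAAGGTCA of estrogen-related receptors was held by 1 of 82 genes of the respiratory chain, ATP synthase and tricarboxylic acid cycle (1.22%) and by 0.422% of all genes. The motifs were chosen after the values were seen, and a match says only that the letters are there.

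Heat shock genes went in both directions. Of 45 tested, 19 were higher in iWAT, 13 in BAT and 13 not called, where 34.0% and 33.6% of all loci were higher in iWAT and BAT. Dnajb1, an inducible cytosolic cochaperone, was at 132, 183 and 219 RPKM in iWAT and 6.17, 7.67 and 20.3 in BAT (3.87 ± 0.30), and Hspa2 was at 7.504, 9.75 and 14.1 RPKM in iWAT and 0.734, 0.9399 and 1.48 in BAT (3.07 ± 0.18). The mitochondrial chaperones Hspa9, at 86.5, 95.5 and 104 RPKM in iWAT and 203, 212 and 226 in BAT (-1.43 ± 0.09), and Dnaja3, at 11.8, 12.9 and 13.8 RPKM in iWAT and 35.7, 38.1 and 42.6 in BAT (-1.87 ± 0.09), were higher in BAT, with Hspd1 (-0.99) and Hspe1 (-0.91). The constitutive Hsp90ab1 was not called, at 199.9, 237 and 245 RPKM in iWAT and 162, 232 and 311 in BAT (-0.22 ± 0.13). For Hspa1a and Hspa8 the row with most reads was not at the annotated gene. Their values are not given here as they are uncertain, but both are counted among the 19 higher in iWAT.

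Complement genes were higher in iWAT in 16 of 20 cases. C4b was at 163, 249.97 and 329 RPKM in iWAT and 1.55, 1.93 and 3.85 in BAT (6.54 ± 0.28), and C6, of the terminal pathway, was at 3.65, 7.31 and 10.7 RPKM in iWAT and 0, 0.0236 and 0.0489 in BAT (7.98 ± 0.37). Besides these, C2 (5.197) and Cfb (5.78), which form the C3 convertases, were higher in iWAT, and C3 itself by less (0.77). C7 (-1.11) was the only one higher in BAT, and lost its call without iWAT sample 13 or 14 or BAT sample 7, 11, 12 or 13. The genes of C1q, C1qa (0.30), C1qb (0.44) and C1qc (0.15), which are made mainly by macrophages, were not called. C4b shares its locus and its sequence with LOC675521 and C4a, so its reads are uncertain as to copy.

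Caveola and basement membrane genes were higher in iWAT for 18 of 23 tested. Caveolae are small pits of the plasma membrane that cover much of the surface of white adipocytes. Cav1, caveolin 1, was at 685, 882 and 981 RPKM in iWAT and 167, 191 and 202 in BAT (1.905 ± 0.10), and Cavin3 (listed as Prkcdbp) was at 155, 246 and 315 RPKM in iWAT and 4.37, 6.03 and 9.08 in BAT (4.96 ± 0.22). Murc, the muscle cavin, was higher in BAT (-2.04). Of the matrix proteins on this list, Sparc was at 424, 715 and 889 RPKM in iWAT and 75.3, 82.1 and 94.5 in BAT (2.72 ± 0.16), and Nid2, a basement membrane linker, was at 15.04, 18.5 and 23.4 RPKM in iWAT and 1.09, 1.62 and 1.96 in BAT (3.33 ± 0.16). Lama4 (1.98), the laminin chain of adipocytes and vessels, was higher in iWAT, and Lama2 (-1.19), the muscle and nerve chain, was higher in BAT.

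Collagens divided between chains, 14 of 27 higher in iWAT and 10 in BAT, against 34.0% and 33.6% of all loci. With only loci of a mean RPKM of at least 1 in either group tested, 1 collagen was called higher in BAT. The basement membrane collagens Col4a1, at 114, 127 and 162 RPKM in iWAT and 22.9, 29.4 and 39.5 in BAT (1.903 ± 0.12), and Col4a2, at 62.3, 86.7 and 106 RPKM in iWAT and 19.4, 24.2 and 34.7 in BAT (1.52 ± 0.14), share a promoter region and partly overlap. Col15a1 was at 45.4, 53.8 and 70.6 RPKM in iWAT and 2.84, 3.13 and 4.06 in BAT (3.797 ± 0.13), and Col18a1, source of endostatin, was at 15.8, 19.97 and 26.1 RPKM in iWAT and 0.9598, 1.42 and 2.03 in BAT (3.49 ± 0.18). The other type IV chains Col4a3 (-2.29), Col4a4 (-2.67) and Col4a5 (-2.401) were higher in BAT. Of 12 preadipocyte and fibroblast markers 3 were higher in iWAT and 6 in BAT, and all had reads. They summed to 99.6 to 179 RPKM in iWAT and 64.0 to 94.5 in BAT, with Pdgfra (-3.15) and Dcn (-2.02) higher in BAT and Col1a1 (1.82) and Col3a1 (1.43) higher in iWAT. The part of fibroblasts in the collagen differences was not tested.

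Vessel and nerve signals were split, 15 of 38 higher in iWAT and 8 in BAT, against 34.0% and 33.6% of all loci. Vegfa was not called, at 40.1, 75.6 and 98.4 RPKM in iWAT and 45.5, 52.9 and 54.4 in BAT (0.27 ± 0.17), nor was Vegfb, at 41.6, 46.2 and 49.2 RPKM in iWAT and 35.8, 39.1 and 52.8 in BAT (-0.09 ± 0.08). Fgf10, a growth factor for adipocyte precursors, was at 17.5, 21.8 and 26.8 RPKM in iWAT and 0.337, 0.559 and 0.955 in BAT (4.83 ± 0.25), and Sema3c was at 4.23, 8.23 and 10.3 RPKM in iWAT and 0.505, 0.567 and 1.11 in BAT (3.29 ± 0.25). S100b, a trophic signal for sympathetic nerves made by brown adipocytes, was at 1.01, 2.32 and 3.43 RPKM in iWAT and 20.5, 25.1 and 40.02 in BAT (-3.88 ± 0.30), and Nrp2 was at 1.24, 1.82 and 3.73 RPKM in iWAT and 7.88, 10.2 and 13.2 in BAT (-2.57 ± 0.24). Of 12 endothelial markers 1 was higher in iWAT and 4 in BAT, none lacked reads, and the sums overlapped at 70.7 to 386 RPKM in iWAT and 74.6 to 178 in BAT. Without iWAT sample 14, 16 genes of the list were higher in BAT. The part of endothelial cells in the list was not tested.

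In the TGF-beta, BMP and Wnt pathways 30 of 52 genes were higher in iWAT and 11 in BAT, the latter being 7 without TMM or with limma and 6 at a mean RPKM of at least 1. Among the ligands, Bmp3 was at 10.6, 16.3 and 21.02 RPKM in iWAT and 0.0804, 0.1301 and 0.208 in BAT (6.62 ± 0.27), while Bmp6 overlapped, at 1.48, 2.47 and 7.96 RPKM in iWAT and 4.07, 5.11 and 6.74 in BAT (-0.82 ± 0.33, edgeR adjusted p = 0.0425). The Bmp6 call was lost when iWAT sample 7, 11, 13 or 15 or BAT sample 6, 7, 11 or 13 was left out, with -0.66 without iWAT sample 11. Of the receptors, Fzd4 was at 72.7, 109 and 129 RPKM in iWAT and 14.2, 22.6 and 25.5 in BAT (2.02 ± 0.18), and Tgfbr2 was higher in BAT, at 3.87, 4.36 and 5.68 RPKM in iWAT and 8.35, 10.4 and 13.6 in BAT (-1.48 ± 0.15). The soluble Wnt inhibitor Sfrp5 was at 14.6, 62.4 and 78.03 RPKM in iWAT and 0.518, 0.678 and 1.03 in BAT (5.86 ± 0.43), with samples 7 and 11 the lowest in iWAT. Ctnnb1, beta-catenin, which carries the Wnt signal, was not called, at 36.9, 41.6 and 49.5 RPKM in iWAT and 31.7, 34.2 and 38.9 in BAT (0.03 ± 0.08).

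Some loci were on in all samples of a group and off in the other, taken as at least 1 RPKM in all 6 samples of a group and at most 0.1 RPKM in all 6 of the other. A total of 31 were on in iWAT and 21 on in BAT. Beside genes given above, the iWAT side held Alb, albumin, with a median of 9.79 RPKM against 0.0143, Pla2g5, a secreted phospholipase, with 3.07 against 0, Tph2, of serotonin synthesis, with 5.91 against 0.0315, and the glycine and sulfur amino acid enzymes Gldc (1.47 against 0.0399) and Cbs (1.83 against 0.0191). The BAT side held Lgr6, a receptor for R-spondins, with a median of 9.13 RPKM against 0.0188 in iWAT, Me3, a mitochondrial malic enzyme, with 1.59 against 0.0164, and S1pr5, a sphingosine-1-phosphate receptor, with 1.78 against 0.00623. These genes were picked after their values had been seen.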

How the data were processed

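Total RNA of 6 samples of iWAT adipocytes and 6 of BAT tissue was sequenced from libraries of the NEBNext Ultra RNA kit, which does not mark strand. The authors mapped reads to mm9 and counted them with the Genomatix Genome Analyzer, whose version and annotation are not given in the sources used here. The submitters' processing notes also list cutadapt 1.16 and HISAT2 2.1.0. The authors deposited a read count per merged gene locus, which is not normalized, and an RPKM per locus. No molecular identifiers were used, so that intervals and floors cover counting error only. The eWAT tables list transcripts and were not used here.

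Samples were grouped by their labels, which do not say that they came from separate animals, so that p-values measure the spread between these samples. Loci reaching 10 reads in 6 or more samples were tested with edgeR 4.0.16 (quasi-likelihood, TMM, total reads behind the RPKM as library size) in R 4.3.3, with Benjamini-Hochberg adjusted p under 0.05 as the threshold. Standard errors came from the F statistic. The test was tried on simulated counts for 19733 loci of iWAT against BAT. It recovered 22 of 67 genes changed 1.5-fold, 49 of 67 changed 2-fold and 62 of 66 changed 4-fold, and called 3 of 19533 unchanged ones. Few loci were changed there, evenly in both directions, whereas 67.6% of loci were called in the data. These rates therefore may not hold for the real comparison. Gene lists were written by hand, and the members and lists were chosen with earlier results of these data known. A list member is the row of its symbol with most reads. For 23 of 1167 members that row lay away from the gene in GENCODE M1 of the same build, 16 of them cytosolic ribosomal proteins.

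Genes were named by rule. The rule took the 10 loci with the largest log2 fold change in each direction (ranges not overlapping, and a mean of 10 RPKM or more where higher). From each list it took 2 called members in each direction (a mean of 5 RPKM or more) and the 2 most abundant. It added the 5 loci with most RPKM per group and all members of the paralog lists. Some of the genes this rule took are not reported here. Genes given with a log2 fold change alone, and those of the on and off loci, were picked after their values had been seen. Alternatives were DESeq2 1.42.0, limma 3.58.1 on log2 RPKM, other scalings and filters, a replicate block and single samples left out. Promoter sequences were searched in Python 3.11.15, and figures were drawn with matplotlib 3.10.9.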

Additional observations from a re-analysis of the deposited data

Results flagged for a closer look

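In 351 measures (the named genes and the marker sums, each in iWAT and in BAT), 31 had a lowest or highest sample whose gap to the next exceeded Dixon's 95% critical value for 6 samples. Chance gives about 1 in 20, here about 17.55. All values are RPKM.

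BAT sample 12 was the highest of its group in Atp2a1 (281.6), Ckm (310.3), Cox6a2 (27.9), Pgam2 (46.5), Pygm (50.9) and the summed skeletal muscle markers (1833). Among BAT samples, sample 7 was the highest in Adipoq (394), Cfd (469.8), Bcat2 (10.7), Ebp (6.38) and Twist1 (6.90). Sample 8 of BAT was the highest in Abcd3 (44.3) and the lowest in Vegfa (45.5). Sample 11 of BAT was the highest in Mrps6 (43.1) and Nfil3 (13.1).

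In iWAT, sample 14 was the highest in COX3 (23805), Rps4x (22.3), Uqcrc1 (72.9) and the summed endothelial markers (386), and the lowest in Nr1d1 (79.7). Sample 11 of iWAT was the highest in Cfd (7772), Hk2 (107) and the summed lymphocyte and lymph node markers (3.13), and the lowest in Lpl (834). Sample 12 was the highest in Adrb1 (2.19), Ckm (3.85) and Plin5 (6.75). Sample 13 was the highest in Pdk3 (3.23) and the lowest in Hsp90ab1 (199.9). Sample 7 was the lowest in Cox8a (228) and sample 15 the lowest in Cpt1b (1.67).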

How the results depend on the processing

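No called gene among those named changed direction under the alternatives run. The demand for at least a 2-fold difference left 4427 loci, 2120 higher in iWAT and 2307 higher in BAT. With single samples left out, calls ran from 12822 to 13635, 6430 to 6787 higher in iWAT and 6385 to 6848 higher in BAT. DESeq2 called 13412 loci, of which 13208 were called in the same direction by edgeR. Without TMM the calls were 9107 and 4732, with limma on log2 RPKM plus 0.1 they were 9086 and 4856 (plus 1: 9060 and 4767), and with upper-quartile scaling 5650 and 7711. With no filter 16673 loci were called, and with a mean RPKM of at least 1, fewer loci being tested, 10212.

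The sample numbers 7, 11, 12 and 13 are shared by both groups. Same-numbered samples deviated together with correlations of -0.037 to 0.13, against -0.19 to 0.21 for other pairs, and the main fit did not take the numbers as pairs. With 4 such pairs, the correlations cannot show whether a shared number means a shared animal. With the number as a replicate block 11711 loci were called, 5842 higher in iWAT and 5869 higher in BAT, 11275 of them as before and 0 in the other direction. In that fit, numbers found in a single group (14 and 15 in iWAT, 6 and 8 in BAT) add nothing to the group difference. It therefore compares only the 8 samples with shared numbers, and pairing and the loss of samples cannot be told apart in its changes. A fit of the 8 samples with shared numbers and the block (11706 calls) and a fit without the rows of mitochondrial transcripts (13339) were chosen after seeing the data.

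Under the block, which rests on the 8 samples with shared numbers, 178 of 186 named genes kept their side of the threshold, and without TMM 177. The block ended the calls of Atp2a1 (-3.92, edgeR adjusted p = 0.116), Ckm (-3.19, 0.208), Pgam2 (-3.66, 0.0509) and Pygm (-2.34, 0.0915), the muscle genes that were highest in BAT sample 12, and that of Fgf21 (0.74, 0.281). It called Cox4i2 (-1.82, 0.0101), Insig1 and Vegfa. Without TMM, or with limma, Pnpla2, Ctnnb1 and Bhlhe40 were called higher in iWAT, and Ldha, Elovl5, Prkar2b, Rps14 and Bmp6 lost their calls. Of the list counts, cytosolic ribosomal proteins moved most (16 higher in iWAT, 3 with the block, 41 with limma). Counts higher in BAT moved from 8 to 14 (block), 13 (upper-quartile) or 5 (no TMM) for vessel and nerve signals, from 11 to 7 (no TMM, limma) for TGF-beta, BMP and Wnt, from 13 to 8 (limma) for heat shock genes and from 6 to 3 (no TMM, limma) for insulin signaling. At a mean RPKM of at least 1, where fewer members were tested, those for collagens went from 10 to 1 and for patterning factors from 8 to 1. Tested for at least a 2-fold difference, the mitochondrial ribosomal proteins higher in BAT went from 69 to 21, and the TGF-beta, BMP and Wnt genes higher in iWAT from 30 to 17. The causes were not tested. Depth limits statements on genes with a handful of reads, such as Hoxc10, Il6 and Fam110c in BAT.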
